A study of Drosophila melanogaster with 2 samples.

Results

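Peaks of the tagged protein CkIIalpha-i1 were described here at promoters whose gene has no other protein-coding gene starting close upstream in the opposite direction. A peak was counted where its summit lay within 500 bp of an annotated protein-coding transcription start site (TSS) and no gene in reach had a TSS head to head with that of another protein-coding gene within 1000 bp. The rule used position alone and no signal value. It found 228 peaks among the 923 thresholded peaks on the main chromosome arms, and among 944 peaks in the whole pooled list. Promoter peaks numbered 438, so the 228 made up 52.1% of them (Wilson 95% interval 47.4 to 56.7, counting error only). The other 210 lay at promoters with a facing gene. A gene counted as such through any of its TSSs, so a summit can lie at another TSS that has no partner.

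Genes of Drosophila lie close together, and many promoters are shared by neighbours that are transcribed in opposite directions. At most promoters without such a neighbour, upstream and downstream can be defined from 1 protein-coding direction. The rule keeps genes whose neighbour on the other strand starts downstream, and 224 of the 228 peaks remain when those are left out too. RNA polymerase II starts at a core promoter, which is typically kept free of nucleosomes and can hold elements such as the TATA box. CkIIalpha-i1 is named for its interaction with the alpha subunit of casein kinase II, a protein kinase with many nuclear and cytoplasmic substrates.

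All libraries came from 1 group, whole embryos aged 0 to 18 hours of a transgenic fly strain that carries CkIIalpha-i1 fused to eGFP, an enhanced green fluorescent protein, and the fusion was precipitated with an antibody against GFP. There were 2 biological replicates and no other genotype, treatment or stage. The labels do not say which promoter drives the fusion, and whole embryos mix all cell types, so a peak in few cells and a weak peak in many cannot be told apart. Chromatin was sonicated to 200 to 800 bp. No control library was analysed here. Each value below is the authors' score for a peak, called the signal, whose scale is not stated, and read depth is unknown. With 1 group and with neighbouring peaks that are not replicates, differences between kinds of peaks are given as values without a test.

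The sequences under the strongest of these peaks are shown for their composition at the summit and for the places of 3 short words. They belong to 8 of the 20 strongest peaks, taken in order of signal on the arms printed here where the window held no annotated exon. Each runs 5′ to 3′ along its gene's strand and was read from the RefSeq Release 6 genome (dm6), with the summit at its centre. Capitals mark the word CAGTG, the GAGA element as GAGAG and the TATA core as TATAAA, on either strand. The window is 201 bases, or 121 bases where an exon lay near. The windows are chr3L:19590547-19590667 for CG14100, chrX:2137247-2137447 for ph-p, chr3R:12449081-12449201 for CG18549, chr3R:26714296-26714496 for amon, chr2L:4997570-4997770 for Rtnl1, chrX:15867887-15868087 for Gapdh2, chrX:1275388-1275588 for Atf3 and chr3R:29618789-29618989 for CG1907. Gapdh2, CG18549 and CG1907 were read on the plus strand and the others on the minus strand.
CG14100: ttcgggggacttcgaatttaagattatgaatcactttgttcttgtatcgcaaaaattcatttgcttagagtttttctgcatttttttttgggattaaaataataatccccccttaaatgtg
ph-p: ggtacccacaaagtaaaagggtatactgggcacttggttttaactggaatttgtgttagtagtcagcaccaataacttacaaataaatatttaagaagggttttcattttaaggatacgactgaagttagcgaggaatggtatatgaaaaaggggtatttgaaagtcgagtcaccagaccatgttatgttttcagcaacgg
CG18549: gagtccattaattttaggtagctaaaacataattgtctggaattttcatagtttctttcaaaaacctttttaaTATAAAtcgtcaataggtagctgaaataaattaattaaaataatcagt
amon: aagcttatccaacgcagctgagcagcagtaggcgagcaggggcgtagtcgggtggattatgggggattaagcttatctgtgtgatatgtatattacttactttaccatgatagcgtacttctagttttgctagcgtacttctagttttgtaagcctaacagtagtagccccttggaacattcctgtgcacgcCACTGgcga
Rtnl1: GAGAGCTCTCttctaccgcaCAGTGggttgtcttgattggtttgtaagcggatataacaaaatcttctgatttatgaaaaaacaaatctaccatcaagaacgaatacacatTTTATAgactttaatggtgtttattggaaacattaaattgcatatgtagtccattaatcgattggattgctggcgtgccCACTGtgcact
Gapdh2: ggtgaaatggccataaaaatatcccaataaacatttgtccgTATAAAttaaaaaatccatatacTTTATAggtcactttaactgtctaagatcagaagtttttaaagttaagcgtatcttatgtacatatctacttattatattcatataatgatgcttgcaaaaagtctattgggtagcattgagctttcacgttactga
Atf3: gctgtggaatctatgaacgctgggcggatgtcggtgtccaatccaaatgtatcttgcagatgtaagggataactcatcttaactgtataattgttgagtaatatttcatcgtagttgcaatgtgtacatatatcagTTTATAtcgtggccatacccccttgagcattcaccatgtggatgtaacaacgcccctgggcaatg
CG1907: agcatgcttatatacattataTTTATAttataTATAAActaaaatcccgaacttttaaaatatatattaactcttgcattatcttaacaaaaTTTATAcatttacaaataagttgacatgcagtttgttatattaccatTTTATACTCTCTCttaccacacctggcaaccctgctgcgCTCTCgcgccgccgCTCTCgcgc

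In these 8 windows the GC content of the central 51 bases lay between 23.5% (CG18549 and CG1907) and 31.4% (amon). In 6 of them the whole window held more GC than the centre by several points, from 31.4% against 27.5% for CG14100 to 46.8% against 31.4% for amon. In Gapdh2 the values were level, with 29.4% over the window and 29.4% at the centre, and in CG18549 the centre, at 23.5%, was less than 1 point under the window. The Rtnl1 window holds the longer word ACAGTGG near both edges, on opposite strands, with adjoining GAGAG matches at its upstream edge and a TATAAA close to the summit. CG14100 and ph-p hold none of the 3 marked words.

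The highest signal of any of the 228 peaks lay 83 bp upstream of CG14100 (chr3L:19590513-19590708), in the space between genes. Its signal was 547 in the pooled list, 228 in replicate 1 and 323 in replicate 2. It had rank 2 in the whole list. The next was in ph-p, which encodes a subunit of the Polycomb repressive complex PRC1 (chrX:2137247-2137462), with 485 pooled, 216 in replicate 1 and 265 in replicate 2. Its summit lay 492 bp upstream of the nearest TSS, in an intron of the gene, close to the edge of the distance rule. Another, weaker peak of the same gene lay 473 bp downstream of a TSS, with 159 pooled, 73.5 in replicate 1 and 88.6 in replicate 2. For both peaks of ph-p, replicate 2 was higher.

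The next peaks in order of signal were at eIF6, CG18549, GstE13 and CG1888. The peak of eIF6, a factor that keeps the large ribosomal subunit from joining too early, scored 426 pooled, 177 in replicate 1 and 241 in replicate 2, and its summit lay 90 bp upstream of the TSS inside another protein-coding gene. The peak of GstE13, a glutathione S-transferase gene, scored 321 pooled, 151 in replicate 1 and 177 in replicate 2. It was the only 1 of the 20 strongest peaks with its summit downstream of the TSS, by 99 bp. The peak of Gapdh2, a gene of the glycolytic enzyme glyceraldehyde-3-phosphate dehydrogenase, scored 222 pooled, 105 in replicate 1 and 119 in replicate 2, at 158 bp upstream. CG18549 scored 352 pooled, 170 in replicate 1 and 181 in replicate 2. CG1888 scored 293 pooled and was nearly level in the replicates, with 149 in replicate 1 and 150 in replicate 2.

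The genes that followed have varied roles. The peak of amon, which encodes a proprotein convertase that processes neuropeptides, scored 279 pooled, 108 in replicate 1 and 166 in replicate 2. Sox14, a transcription factor gene of the ecdysone response, scored 247 pooled, 109 in replicate 1 and 138 in replicate 2. Sesn, the gene of the stress-induced TOR inhibitor Sestrin, scored 244 pooled, 80.8 in replicate 1 and 165 in replicate 2. In all 3 the higher value was that of replicate 2. Atf3, a stress-responsive bZIP factor gene, scored 221 pooled, 109 in replicate 1 and 114 in replicate 2. Rtnl1, a reticulon gene whose product shapes the endoplasmic reticulum, scored 241 pooled, 82.6 in replicate 1 and 163 in replicate 2, in an intron 289 bp upstream of an internal TSS. Toll-7, a receptor gene of the Toll family, went the other way, with 197 pooled, 148 in replicate 1 and 51.4 in replicate 2. That is a log2 ratio of replicate 2 to replicate 1 of -1.53, the lowest of the 20. The peak of dnc, a cyclic AMP phosphodiesterase gene, scored 195 pooled, 86.8 in replicate 1 and 108 in replicate 2, and that of rdgC, a rhodopsin phosphatase gene, 188 pooled, 76.5 in replicate 1 and 107 in replicate 2. The remaining members of the 20, Tina-1, CG1907, CG1142, CG13921 and CG31145, scored between 183 and 245.

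All 20 strongest peaks were overlapped in the thresholded lists of both replicates. Of these 20, 19 lay upstream of their TSS and 18 had the higher signal in replicate 2, with Toll-7 and CG13921 as the exceptions. By rank in the whole list, 4 of the 228 peaks were among the first 20 and 32 among the first 100. Peak width moved with signal. The width was 284 bp in 209 of the 228 peaks, and the 19 narrower ones had a median signal of 244 against 81.8 for the 284 bp peaks, and 16 of the 20 strongest were narrow.

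**Figure D1:**
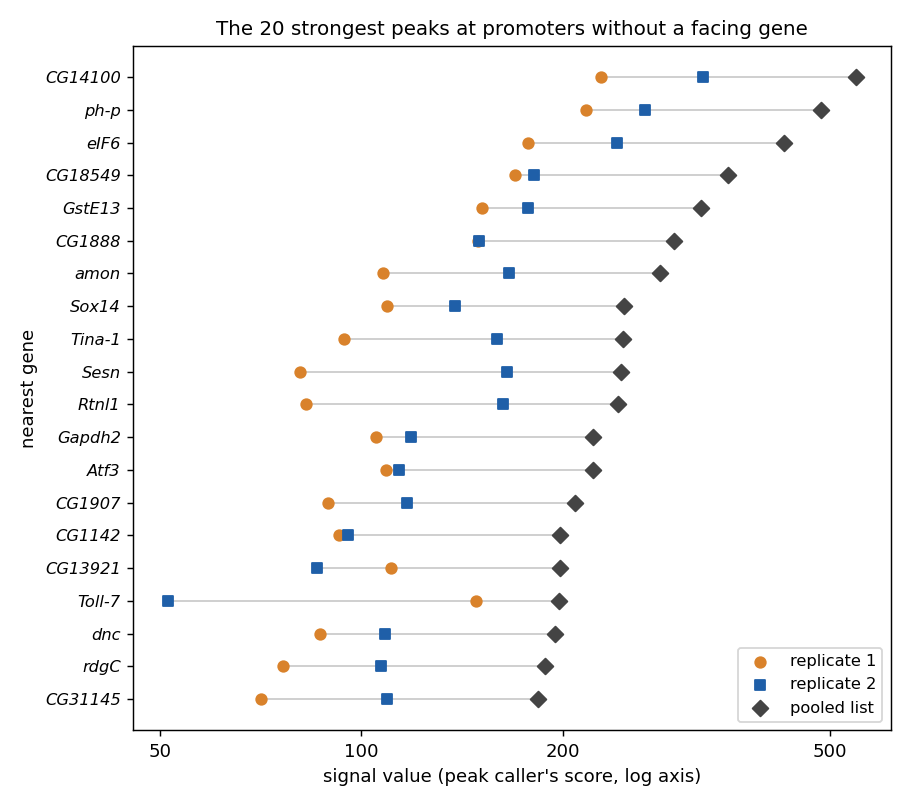
Signal values (peak caller's score, log axis) of the 20 strongest peaks, labelled by the nearest gene, with circles for replicate 1, squares for replicate 2 and diamonds for the pooled list. Replicate 2 lies to the right of replicate 1 in 18 of 20 peaks; Toll-7 shows the widest gap in the other direction, from 148 to 51.4.

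Over the 228 peaks the median signal was 85.3 (interquartile range 68.3 to 124, range 3.95 to 547). It was 85.0 at promoters with a facing gene, 74.6 at peaks away from protein-coding promoters and 78.3 over all 923 peaks. The 228 were drawn from 12316 ranked candidates at such promoters, so 1.85% of candidates there (interval 1.63 to 2.10) were thresholded peaks, against 0.639% of all ranked candidates on the main arms. At promoters with a facing gene the share was 3.78% (3.31 to 4.32). Of the 8893 protein-coding genes without a facing gene, 221 (2.49%) had a peak in reach. At the distance limit of 500 bp, the members just inside were CG6602 at 496 bp upstream with a signal of 51.8 and Moe at 494 bp upstream with 51.9. The peaks just outside were those of CG10479 at 504 bp upstream with 140 and GramD1B at 507 bp downstream with 70.3. On the rule for facing genes, the closest members were Ptp4E, whose facing TSS belongs to CG44774 at 1023 bp, and CG9776, which faces CG14645 at 1027 bp, while Sarm, at 992 bp from CG42591, was left out with 2 peaks.

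Peaks of higher pooled signal were overlapped more often in the replicates' own lists. The pooled list was made from the same 2 replicates, so part of this is built in. Replicate 1's thresholded list had an overlapping peak for 116 of the 228 (50.9%), against a background of 40.7% over all 923 peaks. In replicate 2 it was 136 (59.6%) against 53.6%. Both replicates were overlapped by 80 peaks (35.1%, interval 29.2 to 41.5) against 28.2%, and neither by 56 (24.6%) against 33.8%. In the conservative list, which compares the replicates with each other, 169 (74.1%) had an overlapping peak against 66.6%. In groups of 57 by signal, the share overlapping both replicates was 89.5% in the strongest group, 45.6% and 3.51% in the groups below it and 1.75% in the weakest. At a stricter irreproducible discovery rate (IDR, low where a peak's ranking is repeatable) of 0.001 or less, 81 peaks were left, and 84.0% of them overlapped both replicates. That cut selects repeatable peaks, so a high share there is partly built in too. The thresholded list of replicate 1 alone gave 126 peaks at such promoters and that of replicate 2 gave 139, and a promoter distance of 200 bp in place of 500 bp left 135 of the pooled list.

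Signals of the candidates in the longer ranked lists, which hold peaks that passed no threshold, were compared between replicates for the 211 peaks with a candidate in both. Over these peaks the median was 43.6 in replicate 1 and 46.6 in replicate 2, and the median log2 ratio of replicate 2 to replicate 1 was 0.11 against 0.19 over all peaks with both values. Replicate 2 was higher in 122 of 211. Across these peaks, which share their libraries, Pearson's r was 0.799 and Spearman's rho 0.495. The other 17 peaks had no candidate in replicate 2, among them CG31886 (173 pooled, 85.6 in replicate 1), mrj (161 and 89.1), nebu (147 and 64.2), Dll, a homeobox gene of limb development (112 and 85.2), and aralar1 (94.4 and 94.9), chosen here after their values were seen. Of these, nebu had an overlapping peak in the conservative list, and CG31886 and mrj had none. A missing candidate thus does not show that replicate 2 had no signal at the site. None of the 228 lacked a candidate in replicate 1.

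**Figure D2:**
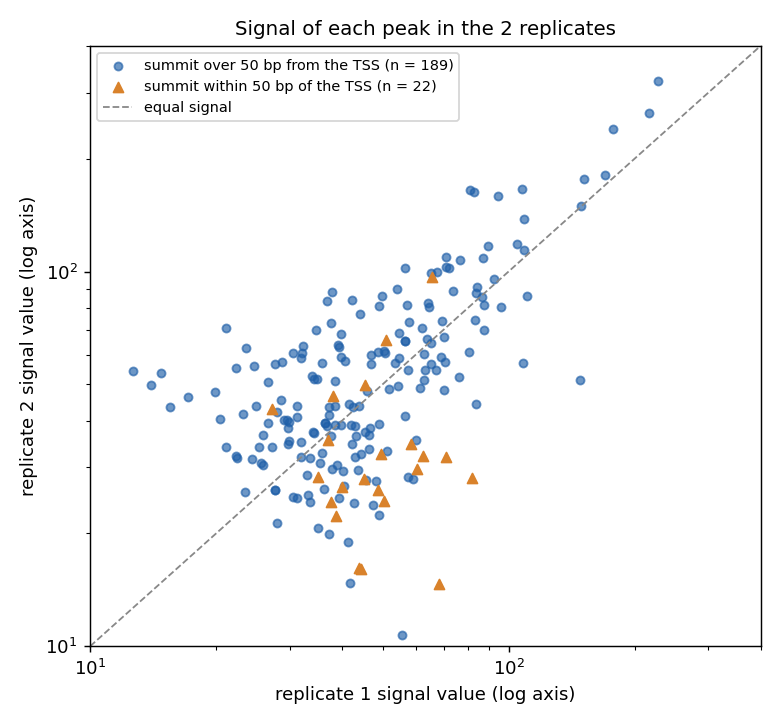
Signal in replicate 2 against replicate 1 (both log axes) for the 211 peaks with a candidate in both ranked lists, with triangles for the 22 peaks whose summit lay within 50 bp of the TSS and a dashed line of equal signal. The 5 peaks of highest signal lie above the line, and 17 of the 22 triangles lie below it.

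The summits lay mostly upstream of the start site. The median position was -156 bp relative to the nearest TSS (interquartile range -239 to -62.5), against -81.5 bp at promoters with a facing gene. Of the 228, 191 (83.8%) were upstream of it, against 78.1% at promoters with a facing gene and 42.3% of the 12083 candidates at promoters without a facing gene that missed the threshold. Within 100 bp of the TSS lay 22.4% of the summits against 51.0% with a facing gene, and between 100 and 300 bp upstream 52.6% against 36.7%. The fullest 50 bp bin was 151 to 200 bp upstream with 18.0% of the peaks. With a facing gene it was 51 to 100 bp upstream with 23.3%. Where a facing partner's TSS lies close upstream, the rule for the nearest TSS shortens distances, which was not adjusted for. Some of the peaks counted with a facing gene lay at another TSS of that gene. At gish the summit was 151 bp upstream of a TSS and the partner, 37 bp from a gish TSS, was not in reach.

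**Figure D3:**
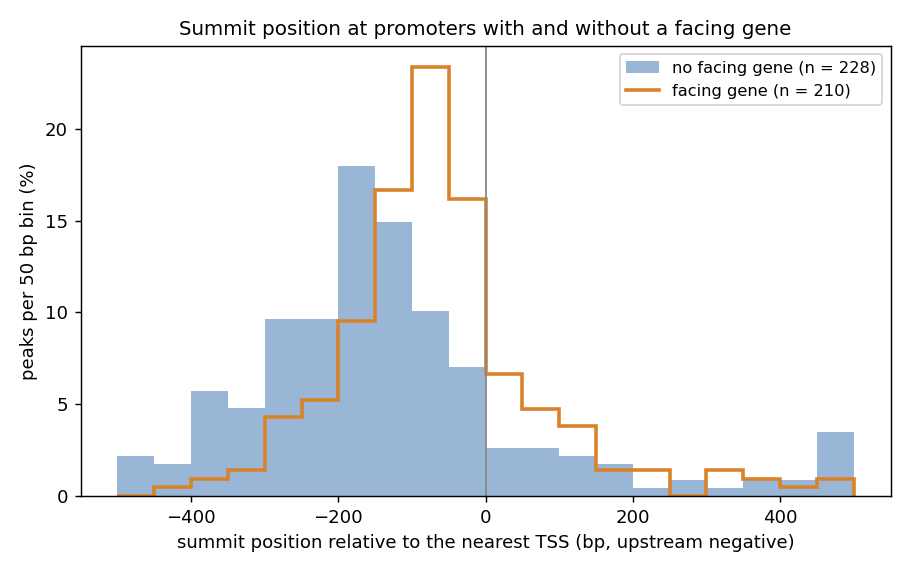
Summit position relative to the nearest TSS (bp, upstream negative) as the share of peaks per 50 bp bin (%), filled for the 228 peaks without a facing gene and outlined for the 210 with one. The filled distribution peaks at 151 to 200 bp upstream and the outlined one at 51 to 100 bp upstream.

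By annotation at the summit, 105 of the 228 peaks lay between genes, 72 in an intron and 32 in an exon of their own gene, 15 inside another protein-coding gene and 4 inside a non-coding RNA gene. At genes with several TSSs, 62 of 144 peaks (43.1%) lay nearest to the outermost TSS and the rest to an internal one. The 214 nearest genes were long, with a median of 6012 bp against 2080 bp over all protein-coding genes without a facing gene. At peaks with a facing gene it was 2878 bp. Only 1 TSS was annotated for 39.3% of the 214, against 44.2% at peaks with a facing gene and 76.4% of all genes without one. A gene with more TSSs has more sequence within reach of the rule. Upstream of their outermost TSS, 127 (59.3%, interval 52.7 to 65.7) had the tail of a gene on the same strand as the next feature, against 56.8% of all such genes, with a median gap of 513 bp against 562 bp. For 57 (26.6%) it was the start of a gene on the other strand, at a median of 3666 bp against 4018 bp, and for 30 the TSS lay inside another gene. A non-coding RNA gene faced 17 of the 214 (7.94%) within the 1000 bp of the rule, against 4.91%.

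At 11 genes there was more than 1 such peak, 25 peaks in all. The phosphodiesterase gene dnc had 4, with signals of 195, 75.9, 64.1 and 12.3, at several of its TSSs. Ptpmeg2, a tyrosine phosphatase gene, had 3, with 137, 103 and 92.6, at 183, 247 and 212 bp upstream of their TSSs. The other 9 genes had 2 each: CG2258, CG5254, CHES-1-like, P5CDh1, Rtnl1, Syx4, aru, brwl and ph-p. In 3 cases the peaks overlapped by 84 bp and shared their replicate candidates, at P5CDh1 (119 and 28.3), dnc (75.9 and 12.3) and CG5254 (51.2 and 3.95). In reverse, 7 peaks were in reach of more than 1 gene without a facing partner, among them that of Sesn and CG46429, that of Cyt-c-d and CG31808, and that of grp, the gene of the checkpoint kinase Chk1, and squ.

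The peaks were spread over all arms. The X chromosome held 55 (24.1%, interval 19.0 to 30.1), against 13.3% of the peaks at promoters with a facing gene (9.39 to 18.6) and 15.9% of the protein-coding genes without one. Away from promoters the X held 23.3% of the peaks. Over all 923 peaks it held 21.2%. Arm 3L held 31 (13.6%, interval 9.75 to 18.7), against 25.2% with a facing gene, 18.9% of all peaks and 19.7% of the genes without a facing gene. Arm 3R held 54 (23.7%) against 21.7% of all peaks, 2R 44 (19.3%) against 19.2%, and 2L 43 (18.9%) against 19.0%. Chromosome 4 held 1, at 185 bp upstream of PlexA, a semaphorin receptor gene, with a signal of 75.5 pooled and 38.6 in replicate 1 and no replicate 2 candidate. It was the only peak of the list on that chromosome and is named for that reason, after its value was seen.

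GC content dipped at the summits. In windows of 100 bp on either side its median was 36.3% (interquartile range 32.3 to 41.8), against 35.8% at promoters with a facing gene, 36.8% over all peaks, 38.3% in 12008 promoter windows of the same length centred 156 bp upstream of a TSS, and 47.3% around candidates that missed the threshold. Within 25 bp of the summit the mean was 35.0%, at 50 to 100 bp it was 40.3% and at 200 to 400 bp 43.6%. Candidates that missed the threshold ran the other way, with 47.7%, 46.6% and 42.9%. Their median position relative to the TSS was 67 bp, against -156 bp for the members, and this was not adjusted for. On the gene's side of the members' summits GC rose to 47.7% around 170 bp past the summit. On the upstream side it was 42.0% around 170 bp before it. The median was 34.3% in the 57 strongest peaks and 39.3% in the 57 weakest. In replicate 2's own list it was 34.3% and in replicate 1's 36.8%.

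**Figure D4:**
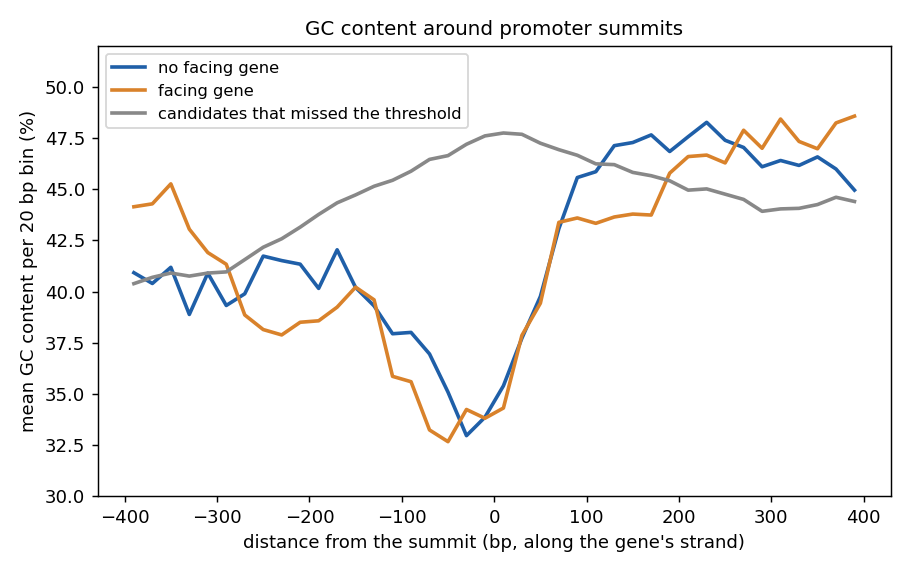
Mean GC content (%, axis from 30%) per 20 bp bin against distance from the summit (bp, along the gene's strand) for peaks without a facing gene, peaks with one, and candidates that missed the threshold at promoters without a facing gene. Both kinds of peaks dip to about the same level near the summit (33.0% and 32.7% in their lowest bins), and the candidates rise to 47.7%. The candidates' summits lie at other positions relative to the TSS, which was not adjusted for.

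Short words were looked for on either strand, in the same 100 bp on both sides of the summit. They were the word ACAGTGG, the word CAGTGTA and the part CAGTG that both share, the DREF element as TATCGATA and the part CGATA of it, the core of the M1BP element as GGTCACAC, the GAGA element as GAGAG, the ZIPIC element as CAGGGCTG, an E-box as CAGCTG and another as CACGTG, the TATA core as TATAAA, the Initiator as TCAGTT or with a final C, the Su(Hw) core as TGCATA, the CTCF core as AGGTGGC or, with G in place of its T, AGGGGGC, the PHO core as GCCAT and the Zelda core as CAGGTA. A match describes the letters in the window and says nothing of a bound factor. ACAGTGG was in 34 windows (14.9%, interval 10.9 to 20.1), against 9.52% with a facing gene, 13.9% of all peaks, 2.91% of the candidates that missed the threshold and 2.74% of all promoter windows. GAGAG was in 73 (32.0%, 26.3 to 38.3), against 16.7% with a facing gene (12.2 to 22.3), 24.7% of all peaks and 27.7% of promoter windows. TATAAA was in 84 (36.8%), against 41.0% with a facing gene, 15.5% of the candidates and 28.7% of promoter windows. The DREF element was in 8 (3.51%), against 6.67% with a facing gene and 2.11% of promoter windows. CAGTG was in 112 (49.1%), against 48.6% with a facing gene, 53.2% of all peaks, 37.5% of the candidates and 29.5% of promoter windows. CAGTGTA was in 12 (5.26%), against 4.76% with a facing gene, 8.78% of all peaks, 12.2% of peaks away from promoters and 2.11% of promoter windows. Against promoter windows, CGATA was found in 67 (29.4%) against 27.2%, the M1BP core in 5 (2.19%) against 0.858%, and ZIPIC in 6 (2.63%) against 0.450%. Over all peaks these words were in 26.4%, 1.52% and 1.30%. For the other words the members' share stood beside that of promoter windows as follows, with 11.4% against 9.07% for CAGCTG, 2.19% against 2.22% for CACGTG, 16.7% against 17.9% for the Initiator words, 15.8% against 12.2% for the Su(Hw) core, 3.51% against 3.01% for the CTCF core, 29.4% against 30.3% for the PHO core and 3.51% against 4.95% for the Zelda core. In each of these the promoter-window share lay within the members' 95% interval, as it did for GAGAG, DREF and CGATA. Among these words, candidates that missed the threshold lay outside it for GAGAG (25.6%), DREF (0.836%), the Su(Hw) core (8.95%) and the PHO core (36.4%). The candidates' summits also lay at other positions relative to the TSS, which was not adjusted for.

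The words had different places around the summit. Of 75 ACAGTGG matches within 250 bp of the 228 summits, 4 lay within 25 bp and 27 at 51 to 100 bp, which is 0.344 matches per kb at the centre, 1.18 at 51 to 100 bp and 0.329 at 151 to 250 bp. Matches were as frequent on the gene's strand (37) as on the other (38). GAGAG was also sparse at the centre, with 1.29 matches per kb, 4.74 at 51 to 100 bp and 5.86 at 151 to 250 bp. TATAAA ran the other way, with 3.70, 1.93 and 1.25 per kb. At peaks with a facing gene the same 3 distances gave 0.0934, 0.810 and 0.214 for ACAGTGG and 0.654, 1.48 and 2.86 for GAGAG. For TATAAA they gave 3.45, 3 and 1.52 there. Around the candidates that missed the threshold these distances gave 0.156, 0.143 and 0.120 for ACAGTGG and 2.32, 2.18 and 2.05 for GAGAG. For TATAAA they gave 0.961, 0.994 and 1.30. The word search follows base composition, and GC content dipped at the same place, so their parts were not separated. The 34 peaks with ACAGTGG had a median signal of 96.1 against 84.0 for the other 194, and 47.1% of them overlapped both replicates (interval 31.5 to 63.3) against 33.0%. Among the 20 strongest it was in 2 windows, those of Tina-1 and Rtnl1. The share with ACAGTGG follows the window, with 6.14% within 50 bp and 23.2% within 250 bp.

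Cytoplasmic ribosomal protein genes were the largest group among the gene lists. Of the 37 such genes without a facing gene, 9 (24.3%) had a peak, against 2.49% of all genes without a facing gene. This was not particular to these promoters. Peaks with a facing gene also included ribosomal protein genes, with 8 within 50 bp of the TSS, 4 at 51 to 100 bp upstream and 1 at 101 to 200 bp upstream. The whole list held 93 such genes. The peak of RpS4 scored 94.9 pooled, 58.5 in replicate 1 and 34.7 in replicate 2, 11 bp upstream of the TSS. RpL27A scored 88.9 pooled, 49.5 in replicate 1 and 32.7 in replicate 2, 8 bp downstream. RpL23A scored 80.4 pooled, 46.4 in replicate 1 and 36.7 in replicate 2, 86 bp upstream. In each of these 3 genes replicate 1 was the higher. RpL30 scored 80.4 pooled, 36.9 in replicate 1 and 35.5 in replicate 2, and RpS23 75.4 pooled, 48.8 in replicate 1 and 26.2 in replicate 2. RpL22 scored 70.1 pooled, 37.8 in replicate 1 and 29.7 in replicate 2. The remaining 3 scored between 60.8 and 68.9.

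All 9 ribosomal protein peaks had the higher signal in replicate 1, with a median log2 ratio of -0.60. It was 0.13 for the other 202 members with both values, of which 80 were higher in replicate 1. Ribosomal protein peaks with a facing gene were mostly higher in replicate 1 too. The exceptions were RpS19a, RpL14 and the peak of CG7943 with RpL32 in reach, while RpS21 had no replicate 2 candidate. Thresholded peaks of replicate 1 overlapped 4 of the 9 and those of replicate 2 overlapped 1. Their summits lay between 86 bp upstream and 15 bp downstream of the TSS, and their median GC content was 46.3% against 35.8% for the other members. The 22 peaks with the summit within 50 bp of the TSS had a median log2 ratio of -0.72, a median GC content of 43.3%, and a higher signal in replicate 1 in 17. With the 7 ribosomal protein peaks left out, the other 15 had a median ratio of -0.96 and were higher in replicate 1 in 10. They include eEF1gamma, an elongation factor gene, with 108 pooled, 82.0 in replicate 1 and 28.1 in replicate 2, and Nacalpha, of the nascent polypeptide-associated complex, with 56.2 pooled, 43.9 in replicate 1 and 16.1 in replicate 2, and yps, a Y-box RNA-binding protein gene, with 91.3 pooled, 60.3 in replicate 1 and 29.8 in replicate 2. The strongest of the 15, MFS18, was higher in replicate 2, with 175 pooled, 65.8 in replicate 1 and 96.9 in replicate 2. Nacalpha, yps and MFS18 were chosen after their values were seen.

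The ratio between replicates moved with the position of the summit. At 51 to 100 bp upstream the median log2 ratio was -0.09 (23 peaks), at 101 to 200 bp 0.11 (69 peaks with both values), at 201 to 300 bp 0.32 (41 peaks) and at 301 to 500 bp 0.33 (27 peaks), and at 51 to 500 bp downstream 0.14 (29 peaks). At promoters with a facing gene the median within 50 bp of the TSS was -0.03 (46 peaks). Upstream it was 0.27 at 51 to 100 bp (48 peaks), 0.37 at 101 to 200 bp (53 peaks), 0.16 at 201 to 300 bp (19 peaks) and 0.86 at 301 to 500 bp (5 peaks). Downstream, at 51 to 500 bp, it was 0.12 (30 peaks). None of the 22 members' summits within 50 bp had ACAGTGG in the window and 2 had GAGAG. Among the members, GAGAG was in 28 of the 75 windows at 101 to 200 bp upstream. What set the replicates apart was not tested. The tagged gene CkIIalpha-i1 has a facing gene and so is no member. It had a peak in replicate 1's thresholded list, at 41 bp from the TSS with a signal of 183, and none in replicate 2's, the pooled or the conservative list.

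**Figure D5:**
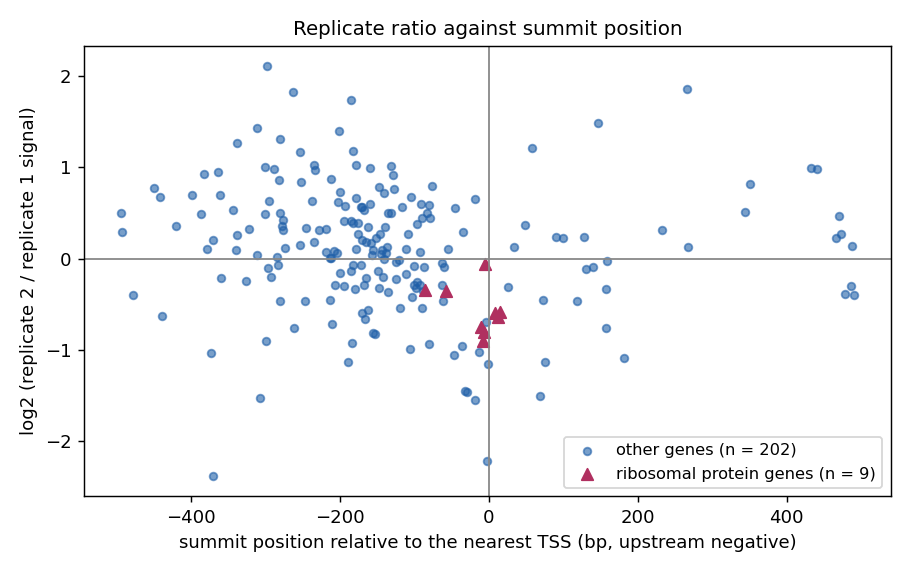
Log2 ratio of replicate 2 to replicate 1 signal against summit position relative to the nearest TSS (bp, upstream negative) for the 211 peaks with both values, with triangles for the 9 ribosomal protein genes. All 9 triangles lie below 0 and between 86 bp upstream and 15 bp downstream.

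Among the other gene lists, translation factors had a peak at 2 of 26 genes without a facing gene (eIF6 and eEF1gamma), and neural and muscle genes at 2 of 10. Those were tin, the heart homeobox gene (122 pooled, 57.4 in replicate 1 and 54.6 in replicate 2), and elav, a neuronal RNA-binding protein gene (121 pooled, 62.8 and 60.1). In both the replicates were close. Lists with 1 such gene were Polycomb and Trithorax with ph-p of 10, heat shock with the small heat shock protein gene Hsp27 of 18 (126 pooled, 63.8 in replicate 1 and 66.1 in replicate 2), the respiratory chain with Cyt-c-d of 44 (125 pooled), and membrane traffic with the syntaxin gene Syx4 of 48 (84.0 and 74.6 at its 2 peaks). No gene of the other lists had a peak, namely 29 of RNA polymerase and general transcription, 26 of embryonic patterning, 22 of the proteasome, 15 mitochondrial ribosomal proteins, 11 aminoacyl-tRNA synthetases, 9 of RNA modification or decay, 9 nuclear kinases and phosphatases, 7 of signalling, 6 insulator and promoter factors, 4 of the spliceosome and 3 of the nuclear pore and import. Against 2.49% over all genes without a facing gene, a count of 0 among so few genes shows no difference.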

How the data were processed

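The authors deposited peak lists on dm6, per the labels and the deposited file records. For each replicate and for the series there is a thresholded list and a longer ranked list. Neither the peak caller nor the aligner is given in the sources used here. The deposited signal value of each peak is the caller's own score, on a scale that is not stated, and comparing it between replicates assumes that both were scored alike. The deposited −log10 of the global IDR in the ranked lists gave the alternative of 0.001 or less. Depth is unknown, so intervals cover counting error only, and the biological replicates (n = 2) are 1 group, so no test was made.

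Genes and TSSs came from the Ensembl annotation BDGP6.54 (release 115) and sequence from the RefSeq Release 6 genome. Head-to-head means that the other gene's TSS lies upstream on the other strand. Overlap needed 1 bp. Peaks off the 6 main arms were left out. Members, gene lists, words and comparisons were chosen with earlier results of these data known. Named genes are those at the 20 strongest peaks, those at the 10 strongest peaks overlapping both replicates, those at the limits of the rule, up to 6 per gene list, and the tagged gene. Other genes were chosen after their values were seen: those with several peaks, peaks in reach of several genes, peaks without a replicate 2 candidate, the peak on chromosome 4, and examples near the TSS. Positions, classes, overlaps and words were tested on simulated data. The software was Python 3.11.15 with pandas 2.3.3 and numpy 2.4.6, and figures were drawn with matplotlib 3.10.9.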

Additional observations from a re-analysis of the deposited data

Results flagged for a closer look

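Some candidates at promoters without a facing gene passed the IDR threshold of 0.01 in the pooled ranked list and are absent from the thresholded list, which is why they are given here: data outside the peaks described. There were 42 such candidates on the main arms and 5 at these promoters. The strongest was 340 bp upstream of larp, with a signal of 221.543. The others were at cbt with 117.777, at CG6966 with 113.987, at Nuak with 102.102 and at Ccz1 with 68.0733. No control library was analysed here, and a level set by a count of 0 does not apply to such scores.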

How the results depend on the processing

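Recomputed under 14 alternative settings, 47 of 64 values stayed within the limits set for them and 17 moved. The limits were 1.5 times for the count, the 95% interval for shares, and the SD between the replicates' own lists for GC content. The count of 228 became 81 at an IDR of 0.001 or less, 135 at a promoter distance of 200 bp, and 126 to 139 in a single replicate's list. The share of promoter peaks without a facing gene became 43.8% at 200 bp, 63.2% where a facing gene had to lie within 500 bp and 43.6% within 2000 bp, and was 50.9% to 55.3% in a single replicate. The share upstream became 76.7% at a promoter distance of 1000 bp and was 82.5% to 87.1% in a single replicate. Overlap with both replicates became 45.5% in the conservative list and 84.0% at an IDR of 0.001 or less. ACAGTGG became 21.0% at that IDR, 6.14% in a window of 50 bp and 23.2% in 250 bp, and was 14.3% to 16.5% in a single replicate. Median GC content became 34.3% at that IDR, 33.7% within 50 bp and 40.9% within 250 bp, and was 34.3% to 36.8% in a single replicate. By construction a wider window can only add matches and a longer facing distance can only remove peaks. A stricter IDR threshold can only lower the count. A shorter promoter distance can remove peaks, and can also add a peak whose gene with a facing partner drops out of reach. The cause of the other changes was not tested. No paired analysis was possible because there is 1 group. Depth is unknown, so weak peaks have no stated detection limit.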
